A study of Mus musculus with 6 samples.

Results

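The genes described here are those of the proteasome, taken as every row of the count files whose symbol begins with Psm, a letter from a to g and a digit. The rule used symbols and no measured value, and found 50 of the 23282 rows of each file. They are the subunits of the 20S core and the 19S particle, the activators and the inhibitor that bind the core, and the assembly chaperones. The rule also caught Psmc3ip, a meiotic recombination factor that is no proteasome subunit, which is kept apart below. Proteasome genes whose symbols do not begin in this way, such as Pomp and Adrm1, are described separately.

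The study compared the hippocampus of mice labelled PHF2 t/g with that of wild-type (WT) mice, with 3 libraries per genotype. All animals were C57BL/6 and aged 16 weeks, and no treatment is given for either group. PHF2 is a histone demethylase, and t/g is taken to mean that these mice carry a transgene for it. The sources used here do not give the construct, its promoter, the cells in which it acts or whether each library came from 1 animal. P-values therefore measure the spread between these libraries, which may be technical. RNA was read by QuantSeq, a method that sequences a short stretch near the 3′ end of each polyadenylated transcript. A level is given in CPM, a library's counts brought to a common total with TMM scaling, and a difference as a log2 fold change of PHF2 t/g over WT. In such libraries a transcript gives about 1 tag whatever its length, so CPM stands for transcripts and not for bases.

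The proteasome is the protease that degrades most short-lived and damaged proteins of the cell, usually after they have been tagged with ubiquitin. Its 20S core is a barrel of alpha and beta subunits with the catalytic sites inside, and the 19S particle on its end binds ubiquitin chains, removes them, unfolds the substrate with a ring of ATPases and feeds it into the core. In neurons it shapes synaptic protein content and plasticity, and in cells exposed to interferon the catalytic subunits are exchanged for inducible ones that alter the peptides made for antigen presentation. The transcription factor Nrf1, encoded by Nfe2l1, raises the subunit genes together when proteasome activity is short.

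PHF2 t/g libraries held 6053363 to 8612720 counts, and WT libraries 5512171 to 8844718. Phf2 itself was measured at 35.5, 37.3 and 43.1 CPM in PHF2 t/g and at 38.3, 35.6 and 39.3 CPM in WT. The groups overlapped (log2 fold change 0.03, SE 0.114; edgeR adjusted p = 0.929), so these tags do not check the genotype labels. All 10 hippocampal markers passed the low-count filter, but the dentate gyrus marker C1ql2 was at 1.29 CPM in PHF2 t/g replicate 3 and 1.36 CPM in WT replicate 3, against 5.33 to 9.80 CPM in the other libraries. Over all 12831 genes tested 291 passed the edgeR test, 34.4% of them higher in PHF2 t/g. That share was 74.7% when libraries were scaled by their totals alone and 24.7% by DESeq2, and with totals alone the median log2 fold change of all tested genes was 0.12 instead of 0.02. PHF2 t/g replicate 1 stood apart in choroid plexus markers: Ttr was at 292 CPM there, at 1.29 and 3.69 CPM in the other PHF2 t/g libraries and at 2.27 to 4.46 CPM in WT. The part of these markers in the values below was not tested. WT replicate 2 stood apart among the proteasome genes: it was the highest or the lowest of the 6 libraries for 36 of the 48 tested, 19 times the highest and 17 times the lowest. Over all tested genes it was at an end for 47.9%, also the largest share of the 6 libraries, so it stood apart beyond the proteasome genes.

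No gene of the Psm symbols passed the test between genotypes. Of the 50, 48 passed the low-count filter and were tested, and 0 were higher and 0 lower in PHF2 t/g by edgeR's quasi-likelihood test at an adjusted p of 0.05, where 2.27% of all tested genes were called (0.779% higher and 1.49% lower). DESeq2 and limma-voom also called 0. At an unadjusted p under 0.05 there were 10, or 20.8% of the 48 beside 14.7% of all tested genes: 7 were lower in PHF2 t/g, beside 7.95% of all, and 3 higher, beside 6.72%. The groups did not overlap for 8 of the 48, or 16.7% beside 20.6%, with 6 lower in PHF2 t/g, beside 10.4%, and 2 higher, beside 10.1%. The 10 at an unadjusted p under 0.05 became 2 without PHF2 t/g replicate 1, 7 without PHF2 t/g replicate 2 and 5 without PHF2 t/g replicate 3. Without WT replicate 1, 2 or 3 there were 10, 6 and 8. Without both PHF2 t/g replicate 1 and WT replicate 2 there was 1. DESeq2 or a fit that was not robust gave 5, scaling by totals 6 and limma-voom 8. A replicate block gave 10, and DESeq2 size factors in edgeR or the other filters 11. Over all genes the calls at an adjusted p of 0.05 fell from 291 to 49 without PHF2 t/g replicate 1. Of the 48, 28 (58.3%) lay below 0, against 46.1% of all tested genes. The smallest adjusted p was 0.0968, for Psmd4. The genes left untested by the filter were Psma8 and Psmb11.

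The differences were small and closely bounded. The 48 log2 fold changes ran between −0.28 and 0.69 with a median of −0.02, beside a median of 0.02 over all tested genes, and their median SE was 0.109. For 43 of them the 95% interval, not adjusted for the number of genes, lay inside a 1.5-fold change in either direction, and for 46 inside 2-fold. The intervals that reached past 1.5-fold were those of Psma1, Psmb8, Psmb9, Psme2 and Psmg1.

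**Figure D1:**
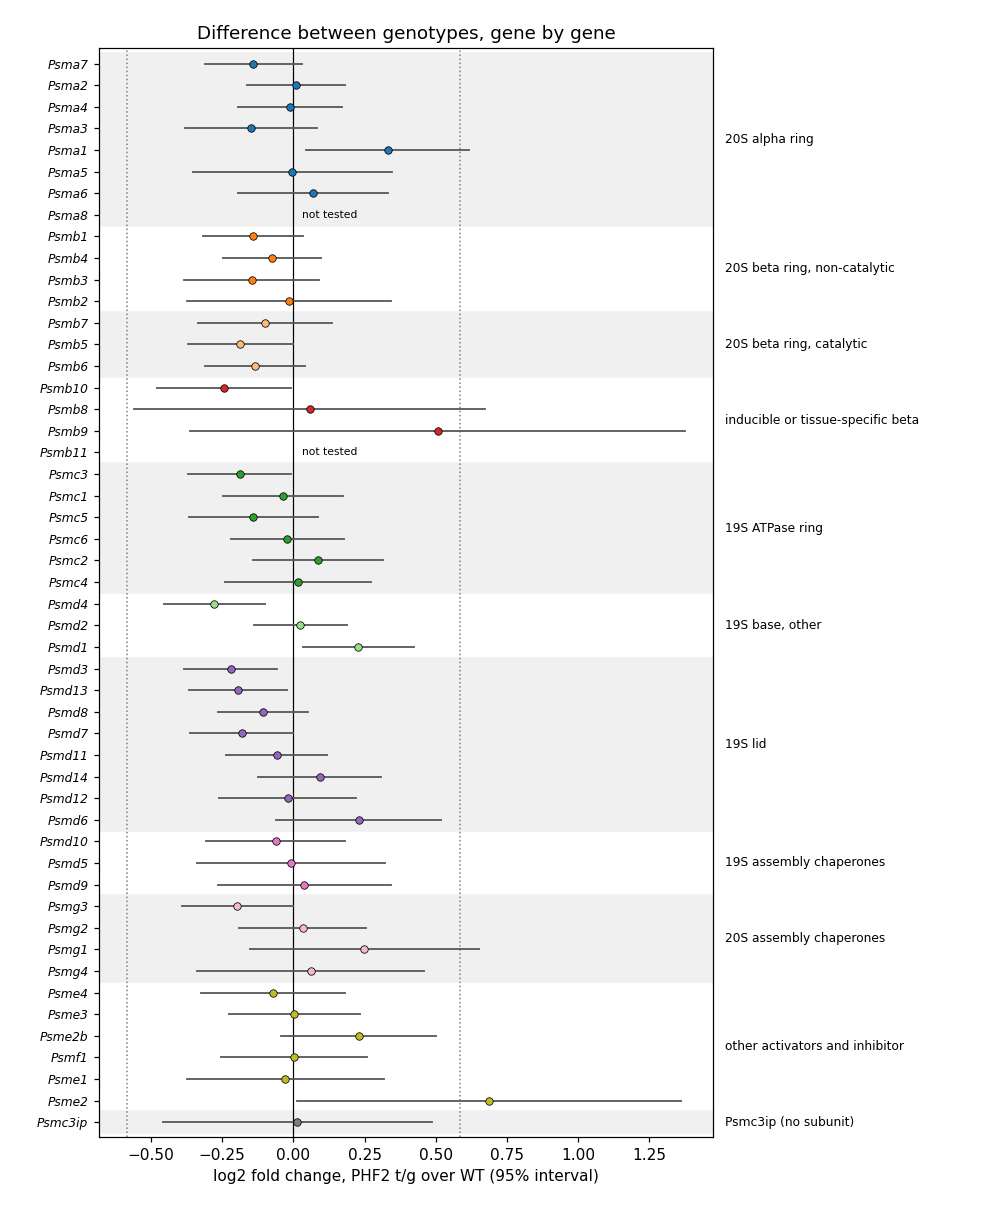
Log2 fold change of PHF2 t/g over WT for each of the 48 tested proteasome genes, with its unadjusted 95% interval, grouped by role; dotted lines mark 1.5-fold. The values lie between −0.28 (Psmd4) and 0.69 (Psme2), and the intervals are widest for the scarce genes Psme2, Psmb8 and Psmb9.

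Levels within this one complex differed far more than the genotypes did. Psmd3, a scaffold subunit of the 19S lid (chromosome 11, 98682554 to 98695978, GRCm38), was the most abundant at a mean of 443 CPM over the 6 libraries, followed by Psmc3 at 366 CPM and Psmd4 at 327 CPM. At the other end Psma8 gave 4 counts in all 6 libraries together. Subunits that occur in equal number in the assembled particle also differed: among Psma1 to Psma7 the highest mean level was 7.30 times the lowest, among Psmb1 to Psmb7 18.6 times, among the ATPases 13.1 times and in the lid 14.6 times. A tag count depends on whether the annotated 3′ end is the one used and on copies elsewhere in the genome, so these ratios are of reads per gene and not of subunits.

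**Figure D2:**
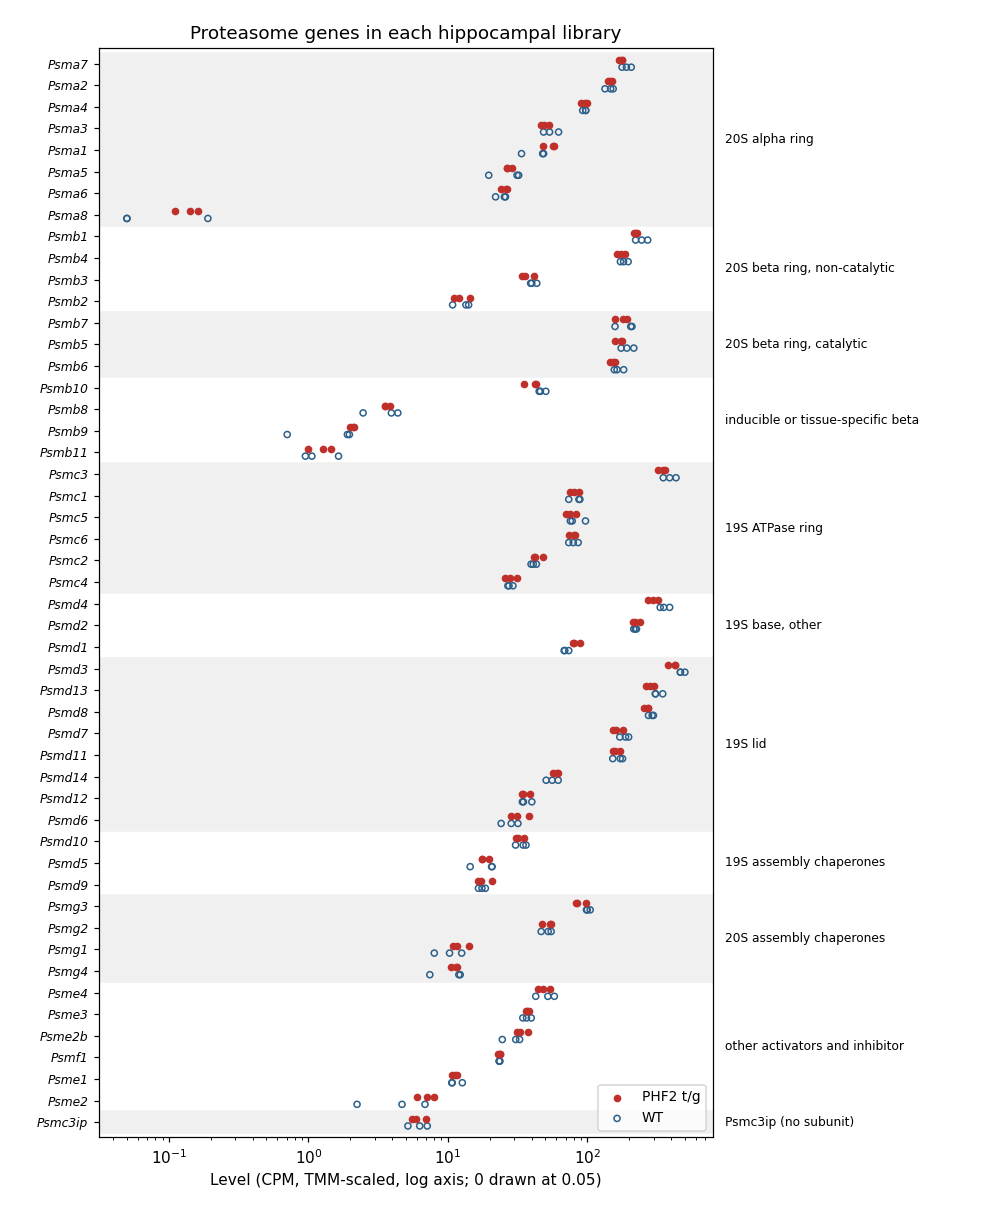
Level of every proteasome gene in each library in CPM on a log axis, with PHF2 t/g as filled points above WT as open points, grouped by role and ordered by mean level; a level of 0 is drawn at 0.05. Levels span from 443 CPM (Psmd3) to 4 counts in all (Psma8), while the points of both genotypes lie close together in nearly every row.

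The alpha ring closes and opens the gate of the 20S core. Psma7 was its most abundant gene, at 168, 177 and 176 CPM in PHF2 t/g and 177, 206 and 191 CPM in WT. Psma2, at 140 to 151 CPM in PHF2 t/g and 134 to 153 CPM in WT, and Psma4, at 89.3 to 98.8 CPM in PHF2 t/g and 92.6 to 97.3 CPM in WT, were almost level between genotypes (log2 fold changes 0.01 and −0.01). Psma1 (chromosome 7, 114264550 to 114276116) had the largest difference of the ring, with 58.1, 48.0 and 56.5 CPM in PHF2 t/g and 48.5, 33.7 and 47.8 CPM in WT. The groups overlapped at their edge and the low value was that of WT replicate 2. Its log2 fold change was 0.33 (SE 0.135; unadjusted p = 0.0263, edgeR adjusted p = 0.254), and 0.17 with WT replicate 2 left out. The ring's other members, Psma3, Psma5 and Psma6, lay between −0.15 and 0.07. Psma8, an alpha subunit of the testis that takes the place of Psma7 in germ cells, had 1, 1 and 1 counts in PHF2 t/g and 1, 0 and 0 in WT, under the floor of 3 counts in every library. The protamine and transition protein genes Prm1, Prm2, Tnp1 and Tnp2, which mark later germ cells, had no count in any library. Sycp3, a gene of meiotic chromosomes on the same germ cell list, was at 10.99, 12.5 and 11.9 CPM in PHF2 t/g and 7.80, 7.28 and 7.26 CPM in WT (log2 fold change 0.66, SE 0.176; edgeR adjusted p = 0.0561). Ddx4 had 11 to 22 counts per PHF2 t/g library and 7 to 13 per WT library.

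The beta ring holds the active sites, and all 7 of its standard genes were slightly lower in PHF2 t/g with TMM scaling, without passing the test. With totals alone Psmb2 was at 0.09 and Psmb4 at 0.03 on the log2 scale, and Psmb7 at −0.000256, and by limma-voom Psmb2 was at 0.01. Among the non-catalytic subunits Psmb1 was at 216 to 228 CPM in PHF2 t/g and 222 to 271 CPM in WT, with Psmb4 and Psmb3 below it. Psmb2 was scarce, at 11.1 to 14.3 CPM in PHF2 t/g and 10.8 to 14.1 CPM in WT. Their log2 fold changes were −0.15 to −0.02. Psmb5, the chymotrypsin-like subunit, was at 175, 179 and 158 CPM in PHF2 t/g and at 175, 215 and 192 CPM in WT. The groups overlapped, and the log2 fold change was −0.19 (SE 0.0883; unadjusted p = 0.0481, edgeR adjusted p = 0.333). Psmb6, the caspase-like subunit, was at 158, 153 and 145 CPM in PHF2 t/g and 163, 182 and 156 CPM in WT. Psmb7, the trypsin-like subunit, was at 158, 194 and 181 CPM in PHF2 t/g and 209, 158 and 205 CPM in WT, and here WT replicate 2 was the low WT library. The last bases of Psmb7 overlap the opposite-strand gene Nek6, so reads of both could be mixed if strand was not used in counting, which is not stated.

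Of the inducible partners of these catalytic subunits, Psmb8 and Psmb9 were scarce. Psmb8, which replaces Psmb5 in immune cells, was at 3.55, 3.55 and 3.86 CPM in PHF2 t/g and 4.38, 2.47 and 3.93 CPM in WT, where the groups overlapped and WT replicate 2 was the low library. Psmb9, which replaces Psmb6, was at 1.998, 2.13 and 2.09 CPM in PHF2 t/g and 1.90, 0.705 and 1.97 CPM in WT. These values rest on 13 to 18 counts per PHF2 t/g library and 6 to 13 per WT library. Its groups did not overlap, without passing the test (log2 fold change 0.51, SE 0.414; edgeR adjusted p = 0.622), and with WT replicate 2 left out it was 0.09. Psmb10, which replaces Psmb7, was more abundant, at 34.9, 42.3 and 42.6 CPM in PHF2 t/g and 46.1, 45.1 and 50.4 CPM in WT. Every PHF2 t/g library lay below every WT library, without passing the test (log2 fold change −0.24, SE 0.113; unadjusted p = 0.0435, edgeR adjusted p = 0.32), and the value was −0.15 without PHF2 t/g replicate 1. Psmb11, the beta subunit of the thymus cortex, was listed at 0.999 to 1.45 CPM in PHF2 t/g and 0.952 to 1.64 CPM in WT. Its last 300 bases hold a stretch that recurs in many other annotated genes at 95% identity or more, so these reads cannot be assigned to Psmb11.

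Expressed as a share of each pair, the inducible subunit differed between pairs more than between genotypes. Psmb8 made up 1.99%, 1.95% and 2.38% of the counts of Psmb5 and Psmb8 together in PHF2 t/g and 2.45%, 1.13% and 2.01% in WT. Psmb9 made up 1.25%, 1.37% and 1.42% of its pair in PHF2 t/g and 1.15%, 0.386% and 1.25% in WT, where the exact 95% binomial interval of WT replicate 2 was 0.142% to 0.838%. Psmb10 made up 18.1%, 17.9% and 19.1% of its pair in PHF2 t/g and 18.1%, 22.2% and 19.8% in WT. The genotypes overlapped for Psmb8 and Psmb10 and for Psmb9 their nearest libraries differed by less than the counting error, and WT replicate 2 was the library farthest from the rest. These intervals cover counting error only.

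**Figure D3:**
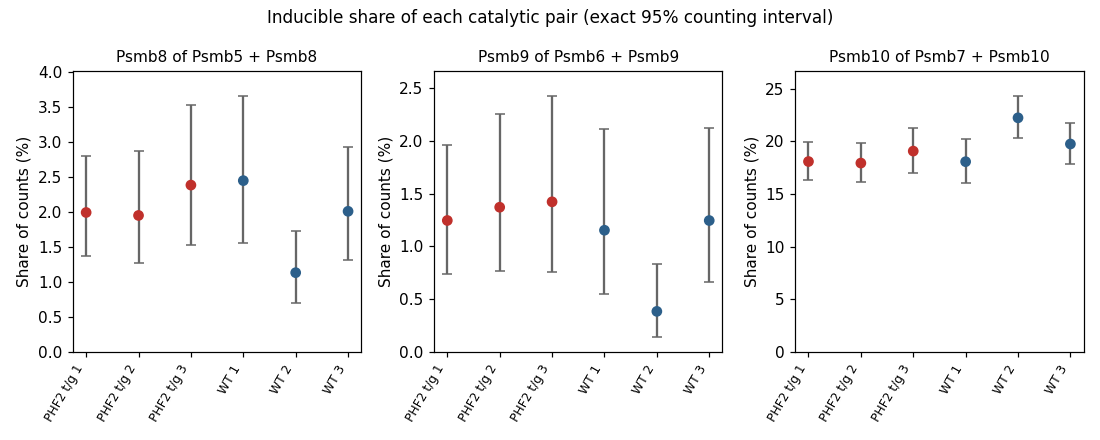
Share of the inducible subunit in the summed counts of each catalytic pair, in percent, for the 3 PHF2 t/g libraries (red) and the 3 WT libraries (blue), with exact 95% binomial intervals. Psmb8 and Psmb9 stay at or below 2.45%, Psmb10 lies at 17.9% to 22.2%, and WT replicate 2 is lowest in both scarce pairs and highest in the third.

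The promoters of these pairs are shown because the partners differ so much in level while encoding subunits of the same site. Each window runs from 250 bases before to 50 bases after the annotated start (RefSeq, GRCm38.p6), and RefSeq held such windows for 42 of the 50 genes. Capitals mark matches on either strand to TGACNNNGC, a form of the antioxidant response element that Nrf1 and its relatives bind, to CCAAT, bound by the factor NF-Y, or to the core of the interferon-stimulated response element (ISRE). The windows of the chymotrypsin-like pair lie at chr14:54617946-54618245, minus strand, for Psmb5 and at chr17:34197945-34198244, plus strand, for Psmb8, and those of the caspase-like pair at chr11:70525107-70525406, plus strand, for Psmb6 and at chr17:34187281-34187580, minus strand, for Psmb9.
Psmb5: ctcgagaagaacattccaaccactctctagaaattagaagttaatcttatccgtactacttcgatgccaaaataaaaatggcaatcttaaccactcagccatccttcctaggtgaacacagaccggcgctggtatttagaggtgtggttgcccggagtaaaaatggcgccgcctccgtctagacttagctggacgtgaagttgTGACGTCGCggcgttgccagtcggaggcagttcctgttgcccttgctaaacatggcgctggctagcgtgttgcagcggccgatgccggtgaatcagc
Psmb8: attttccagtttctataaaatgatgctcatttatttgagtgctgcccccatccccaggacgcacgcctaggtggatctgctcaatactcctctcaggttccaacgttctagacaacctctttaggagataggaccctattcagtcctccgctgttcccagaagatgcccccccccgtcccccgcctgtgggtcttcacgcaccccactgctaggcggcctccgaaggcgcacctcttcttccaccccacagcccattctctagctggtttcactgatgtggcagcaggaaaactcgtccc
Psmb6: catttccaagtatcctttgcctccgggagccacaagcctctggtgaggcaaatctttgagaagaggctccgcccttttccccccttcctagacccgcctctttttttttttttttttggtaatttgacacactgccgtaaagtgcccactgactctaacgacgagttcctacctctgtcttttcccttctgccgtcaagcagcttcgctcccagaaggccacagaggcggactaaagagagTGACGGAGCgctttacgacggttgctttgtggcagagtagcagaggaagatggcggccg
Psmb9: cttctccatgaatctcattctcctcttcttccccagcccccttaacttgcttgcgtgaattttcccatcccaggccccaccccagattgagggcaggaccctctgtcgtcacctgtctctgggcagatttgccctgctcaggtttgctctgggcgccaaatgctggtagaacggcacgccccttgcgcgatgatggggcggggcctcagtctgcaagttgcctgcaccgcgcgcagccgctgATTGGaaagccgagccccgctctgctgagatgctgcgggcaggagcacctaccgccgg
Both standard subunits carried 1 match to TGACNNNGC shortly before the start, and neither inducible partner did. The third pair is not compared, since no window of Psmb7 was used here. The window of Psmb10 held none of the 3 motifs. The window of Psmb9 held 1 CCAAT and that of Psmb8 no match to any of the 3 motifs. Over the 45 windows of the proteasome genes TGACNNNGC was found in 6 (Psmb5, Psmb6, Psmc6, Psmd9, Psmd12 and Psme4), or 13.3%, beside 12.4% of all 32851 windows in the table. CCAAT was in 33.3% beside 37.4%, and the ISRE core in 11.1% (5 windows, of Psmb3, Psmd4, Psmd9, Psme1 and Psmg4) beside 3.44%. No matches overlapped in the windows printed. The ISRE core was added to the search after the values were seen. A match describes the letters of the window and not a bound site.

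The ATPases of the 19S base unfold the substrate. Psmc3 (chromosome 2, 91054016 to 91059438) was by far their most abundant gene, at 350, 360 and 319 CPM in PHF2 t/g and 389, 432 and 350 CPM in WT. WT replicate 3 lay among the PHF2 t/g libraries, and the log2 fold change was −0.19 (SE 0.0863; unadjusted p = 0.0422, edgeR adjusted p = 0.314). The 3′ end of Psmc3 meets that of Slc39a13 on the opposite strand, so the level may hold reads of both. Psmc1, Psmc5 and Psmc6 lay between 70.0 and 87.7 CPM in PHF2 t/g and between 73.5 and 96.9 CPM in WT, and Psmc2 and Psmc4 below them. Psmc4, the scarcest, was at 25.5, 31.4 and 27.8 CPM in PHF2 t/g and 27.4, 29.3 and 26.9 CPM in WT, a log2 fold change of 0.01.

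Among the other subunits of the base, Psmd4 and Psmd1 stood at opposite ends. Psmd4, a receptor for ubiquitin chains (chromosome 3, 95032688 to 95042614), was at 271, 295 and 320 CPM in PHF2 t/g and at 353, 389 and 333 CPM in WT. Every PHF2 t/g library lay below every WT library. The log2 fold change of −0.28 (SE 0.0846, 95% interval −0.46 to −0.10; unadjusted p = 0.00399) missed the threshold (edgeR adjusted p = 0.0968), passed it without the low-count filter (adjusted p = 0.0326), and had adjusted p of up to 0.458 in the other alternatives. Psmd1, a scaffold that docks other subunits (chromosome 1, 86064619 to 86139295), was at 78.6, 80.2 and 88.0 CPM in PHF2 t/g and at 68.9, 68.1 and 73.5 CPM in WT. Here every PHF2 t/g library lay above every WT library, again without passing (log2 fold change 0.23, SE 0.0927; unadjusted p = 0.024, edgeR adjusted p = 0.244). Psmd2, the companion scaffold, was level at 211 to 239 CPM in PHF2 t/g and 215 to 225 CPM in WT. The 3′ end of Psmd1 matches the annotated gene Gm21972 over 231 bases at 100% identity. That of Psmd2 matches Gm5422 over 283 bases at 96.1%, and neither copy is a row of the count files. The promoter of Psmd4 is shown as that of the gene with the smallest p (chr3:95042565-95042864, minus strand), with 3 matches to CCAAT and 1 to the ISRE core in capitals, none overlapping another.
Psmd4: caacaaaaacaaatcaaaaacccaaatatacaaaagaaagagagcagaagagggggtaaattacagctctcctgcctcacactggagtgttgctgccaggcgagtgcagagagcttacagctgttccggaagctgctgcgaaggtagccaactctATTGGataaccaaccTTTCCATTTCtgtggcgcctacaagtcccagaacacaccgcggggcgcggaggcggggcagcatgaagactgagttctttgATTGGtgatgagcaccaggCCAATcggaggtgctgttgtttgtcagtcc

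The lid removes ubiquitin before degradation, and 6 of its 8 genes of the Psm symbols lay below 0. Shfm1, a lid subunit under another symbol, is given with such genes below. Psmd3 was at 379, 427 and 422 CPM in PHF2 t/g and 464, 500 and 465 CPM in WT, with no overlap (log2 fold change −0.22, SE 0.0779; unadjusted p = 0.0112, edgeR adjusted p = 0.164). Psmd13 was at 261, 279 and 301 CPM in PHF2 t/g and 307, 347 and 308 CPM in WT, also with no overlap (log2 fold change −0.20, SE 0.0821; unadjusted p = 0.0286, edgeR adjusted p = 0.261). For both, PHF2 t/g replicate 1 was the lowest library and WT replicate 2 the highest. Psmd8 was at 256 to 273 CPM in PHF2 t/g and 274 to 297 CPM in WT, apart by less than 1 CPM at the edge. Psmd7, the partner of the deubiquitinase, was at 152, 160 and 179 CPM in PHF2 t/g and 188, 198 and 171 CPM in WT, with PHF2 t/g replicate 3 above WT replicate 3. Psmd14, the deubiquitinase itself, did not share that direction (56.5 to 61.8 CPM in PHF2 t/g, 50.6 to 61.7 CPM in WT). Psmd6, the scarcest of the lid, was at 38.2, 28.3 and 31.4 CPM in PHF2 t/g and 31.8, 24.1 and 28.4 CPM in WT, with a log2 fold change of 0.23 (SE 0.138; edgeR adjusted p = 0.466). Psmd11 and Psmd12 were level within their spread.

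The assembly chaperones, which bring the rings together and leave the finished particle, had mean levels of 10.9 to 94.6 CPM among the genes of the Psm symbols. Of the 20S chaperones Psmg3 was the most abundant of these, at 82.5, 98.1 and 83.8 CPM in PHF2 t/g and 99.7, 98.6 and 105 CPM in WT. The groups did not overlap, with 98.1 CPM in PHF2 t/g replicate 2 next to 98.6 CPM in WT replicate 2 (log2 fold change −0.20, SE 0.0924; unadjusted p = 0.0467, edgeR adjusted p = 0.329). Its partner Psmg4 was scarce at 10.5, 11.6 and 11.4 CPM in PHF2 t/g and 7.42, 11.98 and 12.3 CPM in WT. Psmg1 and Psmg2, the other pair, had log2 fold changes of 0.25 and 0.03. The 19S chaperones Psmd10, known as gankyrin, Psmd5 and Psmd9 lay between 16.4 and 34.9 CPM in PHF2 t/g and between 14.5 and 36.3 CPM in WT, with log2 fold changes of −0.06, −0.01 and 0.04.

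The remaining regulators bind the ends of the core in place of the 19S particle. Psme1 and Psme2 form the interferon-inducible cap, and Psme2 had the largest log2 fold change of the 48. It was at 7.99, 5.96 and 7.08 CPM in PHF2 t/g and 6.85, 2.23 and 4.69 CPM in WT, with overlap between the groups and the lowest value in WT replicate 2. Its log2 fold change was 0.69 (SE 0.315, 95% interval 0.01 to 1.36; unadjusted p = 0.0465, edgeR adjusted p = 0.329), and 0.31 with WT replicate 2 left out. Psme2b (chromosome 11, 48945345 to 48946410) is a copy of Psme2 (chromosome 14, 55587440 to 55591101), and the last 300 bases of the Psme2 transcript match it at 99.0% identity. It was listed at 37.6, 31.5 and 33.1 CPM in PHF2 t/g and 30.6, 24.6 and 32.7 CPM in WT. The 3′ ends of Psma5, Psmb3, Psmb5 and Psme1 also match processed pseudogenes, which are no rows of the count files. That of Psme1 overlaps the opposite-strand gene Emc9 as well, which is such a row. Reads of Psme2 and Psme2b cannot be assigned with certainty, and their sum was 45.6, 37.5 and 40.2 CPM in PHF2 t/g and 37.5, 26.8 and 37.4 CPM in WT. The lowest PHF2 t/g library thus stood level with the highest WT library. Psme1 was at 10.6 to 11.6 CPM in PHF2 t/g and 10.7 to 12.7 CPM in WT. Psme3, which forms the nuclear cap, and Psmf1, an inhibitor of the core in the test tube, were level (log2 fold changes 0.0033 and 0.00109). Psme4, a large single-chain activator, was at 44.2, 54.0 and 47.8 CPM in PHF2 t/g and 42.6, 52.1 and 58.0 CPM in WT. Psmc3ip, the gene that only shares the symbol, was at 5.54 to 6.99 CPM in PHF2 t/g and 5.17 to 7.11 CPM in WT, and its last 300 bases lie wholly within exons of the opposite-strand gene Mlx.

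Summed over the 49 genes other than Psmc3ip, proteasome reads were 4559, 4661 and 4637 CPM in PHF2 t/g and 4906, 5169 and 4868 CPM in WT. Every PHF2 t/g library was lower, at 91.5% to 93.6% of the WT mean. The separation of the groups depended on the scaling. As a share of all counts the same genes took 0.477%, 0.479% and 0.476% in PHF2 t/g and 0.468%, 0.497% and 0.475% in WT, where the groups overlapped. With totals alone the median log2 fold change of the 48 was 0.08 and 16 lay below 0, against 28 with TMM. By class, the TMM sums did not overlap for both parts of the beta ring taken as catalytic and non-catalytic, for the alpha ring, for the lid and for the non-ATPase base. They overlapped for the ATPases, for the inducible subunits, for both kinds of chaperone and for the activators. The 19S particle over the 20S core, as a ratio of summed CPM that no scaling can alter, was 1.71, 1.75 and 1.80 in PHF2 t/g and 1.82, 1.85 and 1.74 in WT. Both sums hold genes of the Psm symbols only, so Adrm1, Uchl5 and Shfm1 are left out.

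**Figure D4:**
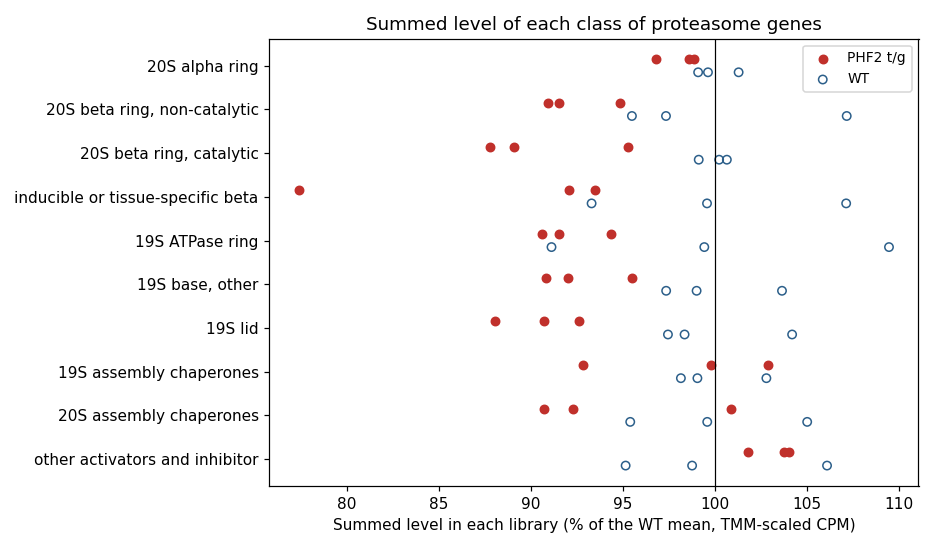
Summed TMM-scaled CPM of each class of genes of the Psm symbols in every library, as percent of the WT mean, with PHF2 t/g as filled points above WT as open points. The PHF2 t/g libraries lie at 88.0% to 92.6% for the lid and the WT libraries at 97.4% to 104%, whereas the activators and both kinds of chaperone overlap.

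The sums rest mainly on the most abundant genes, so the fold changes were also counted by level. Of the 15 proteasome genes at 100 CPM or more, 13 (86.7%) lay below 0, with a median log2 fold change of −0.14. All 1880 tested genes of that level had 68.0% below 0 and a median of −0.07. Of the 23 proteasome genes at 20 to 100 CPM 12 lay below 0 (median −0.00383), and of the 10 tested under 20 CPM 3 did (median 0.05), beside medians of 0.01 and 0.09 for all tested genes of those levels. The bounds of 20 and 100 CPM were set after the values were seen, and no test was made. WT replicate 2 was the highest library for the abundant Psmd3, Psmd4, Psmd13 and Psmc3 and the lowest for Psma1, Psmd6, Psmg1, Psme2 and Psmb9. It was also the lowest for Psmb7, at a mean of 184 CPM, and the highest for Psme1, at a mean of 11.3 CPM. The part of that library in the pattern was not tested. Leaving it out gave log2 fold changes of −0.10 for Psmb5, −0.11 for Psmc3, 0.13 for Psmd6, 0.11 for Psme2b and 0.07 for Psmg1. Other genes moved farther from 0, to −0.22 for Psmb7, −0.21 for Psma5, −0.17 for Psmd5 and −0.28 for Psmb10. Over the 48 tested genes the median without this library was −0.03, and 29 lay below 0.

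**Figure D5:**
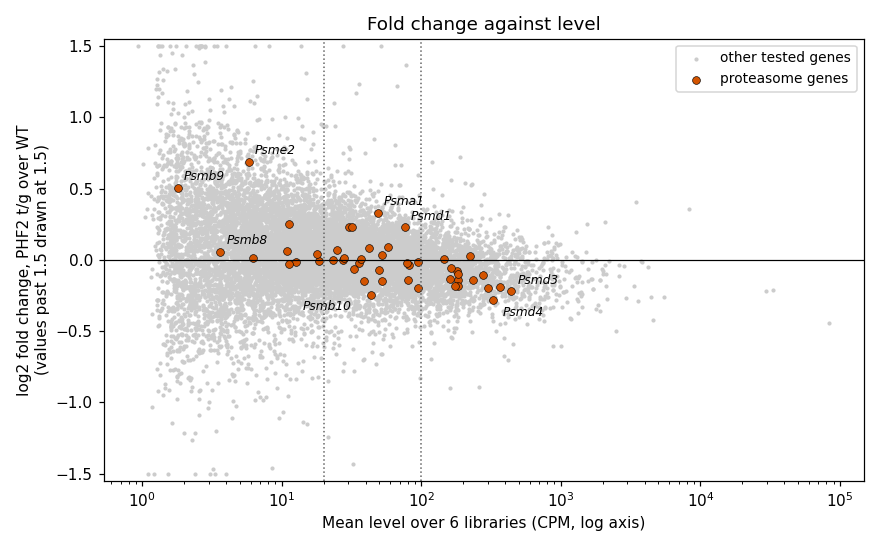
Log2 fold change of PHF2 t/g over WT against mean level in CPM on a log axis, for the 48 tested proteasome genes (orange) and the other tested genes (grey); dotted lines mark 20 and 100 CPM, and values past 1.5 are drawn at 1.5. At 100 CPM or more 13 of 15 proteasome genes lie below 0, as do 68.0% of all tested genes there.

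Among genes of the proteasome and its partners whose symbols do not begin with Psm, Midn and Fbxo7 passed the test. Of 13 tested, 2 fell, 0 rose and 11 did not pass (median log2 fold change 0.04). Over all tested genes 1.49% were called lower and 0.779% higher. Midn encodes midnolin, which carries nuclear proteins to the proteasome without ubiquitin, and it was at 93.8, 100.4 and 100.2 CPM in PHF2 t/g and 133, 124 and 140 CPM in WT. All PHF2 t/g libraries were lower, and Midn fell 1.35-fold (log2 fold change −0.43, SE 0.0846; edgeR adjusted p = 0.00981). Fbxo7, an F-box protein that binds the inhibitor encoded by Psmf1, was at 32.9, 28.0 and 28.2 CPM in PHF2 t/g and 41.7, 41.2 and 42.1 CPM in WT. It fell 1.4-fold (log2 fold change −0.49, SE 0.112; edgeR adjusted p = 0.0286). The call of Midn was lost with PHF2 t/g replicate 1 (adjusted p = 0.128) or 2 (0.066) left out. That of Fbxo7 was lost with any PHF2 t/g library left out (0.0758, 0.161 and 0.127), with WT replicate 3 left out (0.0635), and with scaling by totals (0.0907), limma-voom (0.051) or a fit that was not robust (0.056). Pomp, the chaperone that matures the 20S core, was the most abundant of the list at 678, 767 and 719 CPM in PHF2 t/g and 871, 883 and 833 CPM in WT. Its groups did not overlap and it missed the threshold (log2 fold change −0.26, SE 0.0761; edgeR adjusted p = 0.0888), though DESeq2 (0.0474) and the fit without a low-count filter (0.0469) called it. Zfand2a and Txnl1 were higher in PHF2 t/g with no overlap, at log2 fold changes of 0.28 and 0.16 (edgeR adjusted p = 0.36 and 0.506). Of the 13 genes, 9 lay above 0. Adrm1, Uchl5 and Shfm1, subunits of the 19S particle, did not pass, at log2 fold changes of −0.13, 0.04 and 0.06. Nor did Usp14, a deubiquitinase bound to that particle, at 0.03.

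Genes that regulate the proteasome were examined in the same way. Of 10 genes of the Nrf1 and Nrf2 pathway none passed (median −0.03, with Ngly1 and Maff at the smallest p, log2 fold changes 0.34 and −0.47). Nfe2l1 itself was at 299, 290 and 279 CPM in PHF2 t/g and 321, 242 and 311 CPM in WT, where WT replicate 2 was lowest and the PHF2 t/g libraries lay between the WT ones (log2 fold change −0.01, SE 0.0955; edgeR adjusted p = 0.983).

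The inducible subunits were set beside antigen presentation and microglia, since Psmb8, Psmb9, Psme1 and Psme2 belong to the interferon response. Of 12 tested genes of antigen presentation and the interferon response none passed (median log2 fold change 0.05), and Ifit3 and Bst2 had the smallest p, at log2 fold changes of −0.35 and −0.56. Their summed level was 146 to 151 CPM in PHF2 t/g and 131 to 156 CPM in WT. Tap1, the peptide transporter gene next to Psmb9 in the major histocompatibility complex, was at 1.998, 2.13 and 1.77 CPM in PHF2 t/g and 2.47, 2.47 and 2.42 CPM in WT. Tap2, its partner, was at 3.88 CPM in WT replicate 2 and at 13.7 to 20.1 CPM in the other 5 libraries. Of 12 microglial markers none passed, with a summed level of 412 to 433 CPM in PHF2 t/g and 411 to 492 CPM in WT. The groups did not overlap for Cx3cr1, which was lower in PHF2 t/g (log2 fold change −0.41; edgeR adjusted p = 0.0647). Nor did they for Aif1, also lower (−0.27; edgeR adjusted p = 0.261), or for Tmem119, which was higher (0.64; edgeR adjusted p = 0.126). Fewer cells of a type and less RNA per cell cannot be told apart in such bulk samples. For the other marker lists, 0.779% of all tested genes were called higher. Flt1, Ly6c1 and Vwf rose among 9 endothelial genes, whose summed level was 166 to 172 CPM in PHF2 t/g and 135 to 149 CPM in WT. Cldn5 of that list lay the other way, at 11.1 to 12.8 CPM in PHF2 t/g and 14.9 to 22.3 CPM in WT with no overlap (log2 fold change −0.59; edgeR adjusted p = 0.0791), and Esam was at −0.02. Avp, Oxt and Trh rose among 4 tested hypothalamic genes, with a summed level of 51.5 to 53.7 CPM in PHF2 t/g and 4.95 to 5.41 CPM in WT. Wfs1 rose among the 10 hippocampal genes. None of 3 tested choroid plexus genes passed (157 to 553 CPM in PHF2 t/g, 138 to 156 CPM in WT), although Clic6 did not overlap between the groups (log2 fold change 1.79; edgeR adjusted p = 0.0614). Neither of the 2 tested germ cell genes passed the test. The part of these lists in the values of the proteasome genes was not tested.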

How the data were processed

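Hippocampal RNA, taken with Trizol, was read as QuantSeq 3′ tags, per the labels' protocols. The submitters' processing notes name Bowtie2, edgeR and the build mm10; their roles and versions, the annotation, the strand setting and any filters were not stated. The authors deposited a table of raw counts by gene symbol for each library, and the 44 of 23282 rows that repeat a symbol were kept.

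Groups and replicate numbers came from the titles. Genes that passed filterByExpr were compared between genotypes, with no other covariate, by edgeR 4.0.16 in R 4.3.3, using TMM factors, a robust glmQLFit and glmQLFTest. P-values were adjusted over 12831 genes (Benjamini-Hochberg); SE is the log2 fold change over the root of its F. The procedure was tested on simulated data. Alternatives were other scalings, DESeq2 1.42.0, limma-voom (limma 3.58.1), other filters, a fit that was not robust, a replicate block, libraries left out and other thresholds; leaving out PHF2 t/g replicate 1 with WT replicate 2 was added after seeing the data.

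Members and lists were chosen with earlier results of these data known. Values per library are given for the 12 members of smallest p, the catalytic pairs and the most and least abundant of each class, and others in ranges; in the other lists, genes past the threshold or the 1 or 2 of smallest p. Pomp, Nfe2l1, Adrm1, Uchl5, Shfm1, Usp14, Zfand2a, Txnl1, Tap1, Tap2 and the level bounds were chosen after values were seen. Coordinates and promoters come from RefSeq (GRCm38.p6), and 3′ ends from GENCODE M21: copies are matches of at least 100 of the last 300 bases at 95% identity, overlaps are exons within the last 500 bases. A list of genes that supply ubiquitin is not reported here. Counting intervals and the floor of 3 counts cover counting error only.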

Additional observations from a re-analysis of the deposited data

How the results depend on the processing

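The count of genes of the Psm symbols past the threshold was 0 higher and 0 lower under every alternative but these. Psmd4 was the 1 gene lower without the low-count filter and at an adjusted p threshold of 0.10. At an unadjusted p under 0.05, 7 were lower and 3 higher. The count stayed 0 with any 1 library left out. Their median log2 fold change was 0.0835 with library size alone, −0.0411 without both PHF2 t/g replicate 1 and WT replicate 2, and −0.0503 to −0.00371 with 1 library left out. Over all genes the count of 291 became 162 by limma-voom, 606 without the low-count filter, 149 with a fit that was not robust, 140 without those 2 libraries, 547 at an adjusted p threshold of 0.10 and 1882 at an unadjusted p under 0.05, and ran from 49 to 392 with 1 library left out. Each leave-out holds fewer samples and each threshold changes the call by definition; for the others the cause was not tested. Of 26 proteasome and 9 other genes taken through 15 alternative fits, the direction changed mostly for genes close to 0, and also for Psmd6, whose reported value was 0.23. With library size alone Psmb2 was at 0.0861, Psmd10 at 0.0386, Psme4 at 0.0285 and Nfe2l1 at 0.0956. By limma-voom Psmb2 was at 0.00809 and Nfe2l1 at 0.0105, and by DESeq2 Psmc3ip was at −0.0028. Over the fits that left out 1 library, or both PHF2 t/g replicate 1 and WT replicate 2, the ranges were −0.254 to 0.0534 for Psmb2, −0.183 to 0.202 for Psmb8, −0.229 to 0.124 for Psmc3ip, −0.0681 to 0.127 for Psmc4, −0.0123 to 0.32 for Psmd6, −0.0687 to 0.155 for Psmd9, −0.14 to 0.0329 for Psmd10, −0.187 to 0.0215 for Psme4, −0.126 to 0.204 for Psmg4 and −0.149 to 0.059 for Nfe2l1. Without both libraries Psmb8 was at −0.161 and Psme4 at 0.00845. No gene of the Psm symbols other than Psmd4 passed under any of these fits. The replicate numbers did not pair the libraries: deviations of same-numbered libraries correlated at −0.00445, 0.123 and 0.0846. With the replicate number as a block 299 genes passed, 0 of them of the Psm symbols, and Nfe2l1 was at 0.00244. Depth limits Psma8, Psmb8, Psmb9 and Psmb11, with 4 to 151 counts over all libraries.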
